A study of Mus musculus with 13 samples.

Results

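Acetylation of histone H3 at lysine 27 (H3K27ac) was compared between LβT2 cells exposed to activin A and cells exposed to vehicle, using 4 of the 13 samples of a chromatin immunoprecipitation and sequencing (ChIP-seq) series. The members were the 2 vehicle and the 2 activin libraries made with an antibody against H3K27ac, chosen by their labels. LβT2 cells are an immortalised mouse model of the gonadotrope, the pituitary cell that secretes luteinising hormone and follicle-stimulating hormone. The cells were stably transduced with a lentivirus that carried constitutive GFP and a doxycycline-inducible, FLAG-tagged mouse FOXL2 (FLAG-mFoxL2), so both groups overexpressed this forkhead transcription factor. Cells grown in 10% fetal bovine serum recovered for 24 h, were given doxycycline (2% w/v) for 48 h and then stood for 2 h in medium with 2% serum. The activin group next received 1 nM activin A for 1 h and the vehicle group received vehicle for 1 h, after which both were fixed with 1% formaldehyde. Each library was pooled from 3 plates, and the labels do not say that replicates came from separate cultures, so the p-values below measure only the spread between these libraries. The remaining libraries targeted SMAD2/3 and FLAG-FOXL2, and are used here only to sort the acetylated regions into classes; a Protein-A control sample was not analysed here.

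H3K27ac is deposited by the acetyltransferases p300 and CBP and marks active promoters and enhancers. Activin binds type II receptors that recruit and activate type I receptors, which phosphorylate SMAD2 and SMAD3; these enter the nucleus with SMAD4 and can recruit p300 and CBP. In gonadotropes activin is known for its stimulation of Fshb, which encodes the β subunit of follicle-stimulating hormone and at which SMADs act together with FOXL2.

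Promoter sequences are shown for 8 genes to which the results below refer: the gonadotropin subunit genes Lhb and Cga and the gonadotropin-releasing hormone receptor gene Gnrhr as the genes that define the cell, the activin β-B subunit gene Inhbb, and 4 genes with a promoter region that appeared, changed rank or narrowed (Egr2, Pcsk1n, Zbed5 and 1810046K07Rik). Each run is the 250 bases before the annotated start, read 5′ to 3′ on the gene's strand, from RefSeq GRCm38.p6. Capitals mark matches, on either strand, to 6 motifs: CAGACA (a SMAD-box motif), GTAAACA (forkhead), TGANTCA (AP-1), TGACGTCA (CRE), CAAGGTCA (SF-1) and TAATCC (PITX). Among 32536 promoter windows of this length, 17.0% held CAGACA or its reverse complement TGTCTG, 3.17% GTAAACA, 6.73% TGANTCA, 1.56% TGACGTCA, 1.33% CAAGGTCA and 6.25% TAATCC.
Lhb: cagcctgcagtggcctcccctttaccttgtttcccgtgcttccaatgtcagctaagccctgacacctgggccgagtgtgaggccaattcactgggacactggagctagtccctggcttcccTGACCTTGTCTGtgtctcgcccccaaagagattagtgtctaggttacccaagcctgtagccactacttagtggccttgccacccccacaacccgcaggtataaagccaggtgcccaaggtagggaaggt
Cga: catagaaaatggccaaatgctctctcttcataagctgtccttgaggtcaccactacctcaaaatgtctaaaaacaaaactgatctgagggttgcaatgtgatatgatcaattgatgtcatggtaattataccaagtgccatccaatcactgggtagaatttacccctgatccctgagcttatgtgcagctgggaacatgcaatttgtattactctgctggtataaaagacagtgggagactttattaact
Gnrhr: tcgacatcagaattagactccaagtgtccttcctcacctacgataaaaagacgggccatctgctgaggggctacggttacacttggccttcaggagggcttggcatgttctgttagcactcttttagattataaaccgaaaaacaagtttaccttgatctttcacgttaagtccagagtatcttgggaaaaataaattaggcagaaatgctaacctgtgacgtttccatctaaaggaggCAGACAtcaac
Inhbb: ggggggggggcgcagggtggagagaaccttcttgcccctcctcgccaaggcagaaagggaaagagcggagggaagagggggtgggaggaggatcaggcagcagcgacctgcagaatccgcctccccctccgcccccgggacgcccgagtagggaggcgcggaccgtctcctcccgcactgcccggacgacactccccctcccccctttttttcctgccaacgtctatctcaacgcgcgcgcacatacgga
Egr2: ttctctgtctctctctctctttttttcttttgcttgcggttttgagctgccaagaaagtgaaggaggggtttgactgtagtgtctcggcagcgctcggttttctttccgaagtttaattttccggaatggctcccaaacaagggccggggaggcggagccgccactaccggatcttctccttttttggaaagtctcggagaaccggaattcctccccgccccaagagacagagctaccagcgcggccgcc
Pcsk1n: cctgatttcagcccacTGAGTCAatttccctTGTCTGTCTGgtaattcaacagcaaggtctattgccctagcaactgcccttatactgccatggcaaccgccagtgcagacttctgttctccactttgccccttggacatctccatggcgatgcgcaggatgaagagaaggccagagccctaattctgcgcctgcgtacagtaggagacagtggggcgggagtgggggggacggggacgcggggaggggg
Zbed5: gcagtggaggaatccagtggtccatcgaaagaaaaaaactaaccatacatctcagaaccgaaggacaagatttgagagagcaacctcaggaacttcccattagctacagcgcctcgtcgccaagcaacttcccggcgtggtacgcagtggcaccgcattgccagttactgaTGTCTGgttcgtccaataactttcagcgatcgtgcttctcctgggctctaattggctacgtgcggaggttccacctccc
1810046K07Rik: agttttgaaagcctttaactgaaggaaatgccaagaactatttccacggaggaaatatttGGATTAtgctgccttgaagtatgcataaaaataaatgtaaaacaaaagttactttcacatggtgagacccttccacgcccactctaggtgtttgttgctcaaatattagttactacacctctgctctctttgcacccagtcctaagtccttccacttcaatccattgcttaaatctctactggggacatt
The windows lie at chr7:45420696-45420945 (plus strand, Lhb), chr4:34893529-34893778 (plus, Cga), chr5:86197902-86198151 (minus, Gnrhr), chr1:119422249-119422498 (minus, Inhbb), chr10:67537316-67537565 (plus, Egr2), chrX:7919572-7919821 (plus, Pcsk1n), chr5:129895473-129895722 (plus, Zbed5) and chr9:51312670-51312919 (minus, 1810046K07Rik). In Lhb, an SF-1 match from 129 to 122 bases before the start overlaps a SMAD-box match from 123 to 118. In Pcsk1n, an AP-1 match (234 to 228) is followed by overlapping SMAD-box matches (219 to 214 and 215 to 210). Gnrhr and Zbed5 hold 1 SMAD-box match each, 1810046K07Rik holds a PITX match, and Cga, Inhbb and Egr2 hold none of the 6 motifs. A match describes letters only, and acetylation was called over whole regions, so no value below belongs to a single match.

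The authors called broad H3K27ac peaks in each library separately. Vehicle lists held 41150 and 40398 peaks that covered 50.4 and 49.2 Mb, and activin lists held 41763 and 38995 peaks that covered 51.8 and 43.6 Mb. Here and below, values are given in the order vehicle 1, vehicle 2, activin 1, activin 2. Activin 2 had the fewest and narrowest peaks (median width 710, 692, 699 and 633 bp), and it touches every comparison below. The log2 number of peaks differed by -0.015 between activin and vehicle (pooled SD 0.051, exact two-sided permutation test over the libraries, p = 1), the log2 median width by -0.076 (SD 0.074, p = 0.667) and the promoter share by -0.579 percentage points (SD 0.5, p = 0.333), and this test cannot give a p under 0.333 with 2 against 2. Promoter shares were 20.8 and 20.6% in vehicle and 19.6 and 20.6% in activin, with vehicle 2 and activin 2 nearly equal (20.617 and 20.613%). With peaks of −log10 q of at least 2 the groups overlapped (23.59 and 23.48% in vehicle, 22.44 and 23.61% in activin). The groups also overlapped in number of peaks and in width. Read depth is unknown from peak files, and list length stands in for it. The gonadotrope markers Cga, Lhb, Gnrhr, Nr5a1, Foxl2, Pitx1 and Gata2 had assigned peaks in all 4 libraries, while Fshb and Lhx3 had none. Of 21 genes of other pituitary lineages 9 had a peak in some library, among them Pomc, Ghrhr, Crhr1, Neurod1, Drd2 and S100b in all 4, and 12 had none, among them Gh, Tshb, Pou1f1 and Tbx19. No peak was assigned to 15 of 17 genes of non-endocrine cells.

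Acetylated regions found in only one treatment were a minority. Peaks that shared at least 1 bp were merged into 53008 regions, of which 24356 (45.9%) had a peak in all 4 libraries. Regions seen in activin 1 and activin 2 but in neither vehicle library (activin-only) numbered 3094 (5.84%), and vehicle-only regions numbered 3599 (6.79%). The authors' −log10 q orders peaks within a list, so the 24356 shared regions were ranked in each library, with 100 as the strongest (shared percentile), and normal scores of the ranks were compared with limma. At a Benjamini-Hochberg adjusted p under 0.05, 926 regions (3.8%) were higher with activin and 741 (3.04%) were lower. Groups did not overlap, with both activin libraries on one side of both vehicle libraries, in 27.9% of regions in the upward and 30.4% in the downward direction. Widths, centred on each library's median, passed the same test as wider in 265 regions (1.09%) and as narrower in 207 (0.85%), against 28.3% and 23.5% with groups that did not overlap. Of the regions of higher rank, 116 were also wider, and of those of lower rank, 49 were also narrower. With any 1 of the 4 libraries left out no region passed for rank, although 2614 to 2952 were higher and 2000 to 3323 lower at an unadjusted p under 0.05. Width calls were 0 without activin 1 or activin 2, and 501 wider and 183 narrower without vehicle 1 and 372 and 114 without vehicle 2; in these fits 1 library stands against 2 and is assumed to vary like the others, and all named calls kept their direction. In a bulk sample, a change in fewer cells and a smaller change in all cells cannot be told apart.

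**Figure D1:**
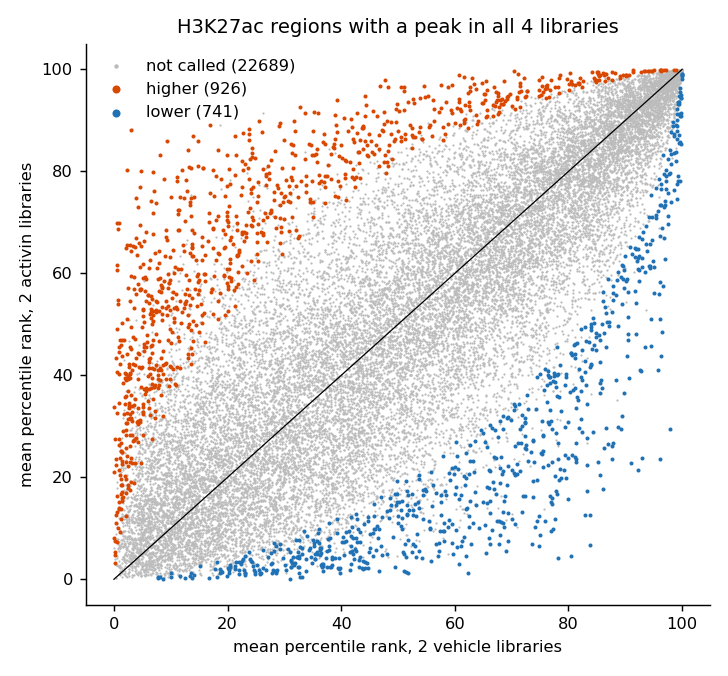
Each point is 1 of the 24356 regions acetylated in all 4 libraries. The x axis is the mean shared percentile of the 2 vehicle libraries and the y axis that of the 2 activin libraries (percent, 100 is the strongest); 926 regions of higher rank (orange) and 741 of lower rank (blue) lie away from the diagonal, which marks equal rank.

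Most regions of higher rank overlapped SMAD2/3 binding. SMAD2/3 regions were taken as those with a peak in both activin SMAD2/3 libraries, and an H3K27ac region was assigned to the class when it shared at least 1 bp with one. The overlap held for 61.0% of the regions of higher rank (95% Wilson interval 57.8 to 64.1) and 59.2% of the wider regions, against 12.0% of all regions acetylated in the 4 libraries. It held for 7.83% of the regions of lower rank (6.10 to 9.99) and 3.38% of the narrower regions. Among regions found in only one treatment it held for 15.2% of the activin-only and 0.333% of the vehicle-only regions, which is 12 of 3599, against 7.07% of all 53008 regions. The intervals cover counting error only, and neighbouring regions are not independent. At an unadjusted p under 0.05 with 1 library left out, SMAD2/3 overlap was 36.1% to 42.1% among regions of higher rank and 4.97% to 6.41% among those of lower rank.

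Read from the side of SMAD2/3, 565 of 2913 shared regions with SMAD2/3 were of higher rank (19.4%) and 58 of lower rank (1.99%), while without SMAD2/3 the shares were 1.68% and 3.19%. The share of higher rank followed the rank of the SMAD2/3 peak itself. Over 4 bins from the weakest to the strongest SMAD2/3 peaks it was 10.4%, 12.4%, 19.1% and 31.6%. The share of lower rank in the strongest bin was 0.402%. An H3K27ac region that overlapped SMAD2/3 peaks of several bins was counted in each (693, 741, 805 and 996 shared regions), so the bins are not exclusive. Regions whose SMAD2/3 peak was present in both vehicle libraries too were few, and 37 of 124 were of higher rank (29.8%) and 0 of lower rank. The median shared percentile of regions with SMAD2/3 was 64.3 and 63.3 in vehicle and 79.8 and 77.9 in activin, a difference of 15.0 points (pooled SD 1.06; exact permutation p = 0.333, the smallest this design gives). Both activin libraries lay above both vehicle libraries. The median change per region was smaller than this difference of class medians, at 10.1 points. Acetylated width at these regions was a median of 2475 and 2450 bp in vehicle and 3229 and 2867 bp in activin, whereas without SMAD2/3 it was 1202, 1170, 1158 and 980 bp. Peaks at SMAD2/3 regions held 17.5% and 17.5% of all acetylated bp in vehicle and 23.1% and 22.3% in activin. Conversely, 59.6% and 58.3% of the SMAD2/3 regions lay under an H3K27ac peak in vehicle, and 75.1% and 68.9% in activin, so most SMAD2/3 regions were acetylated in cells that had received no activin.

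**Figure D2:**
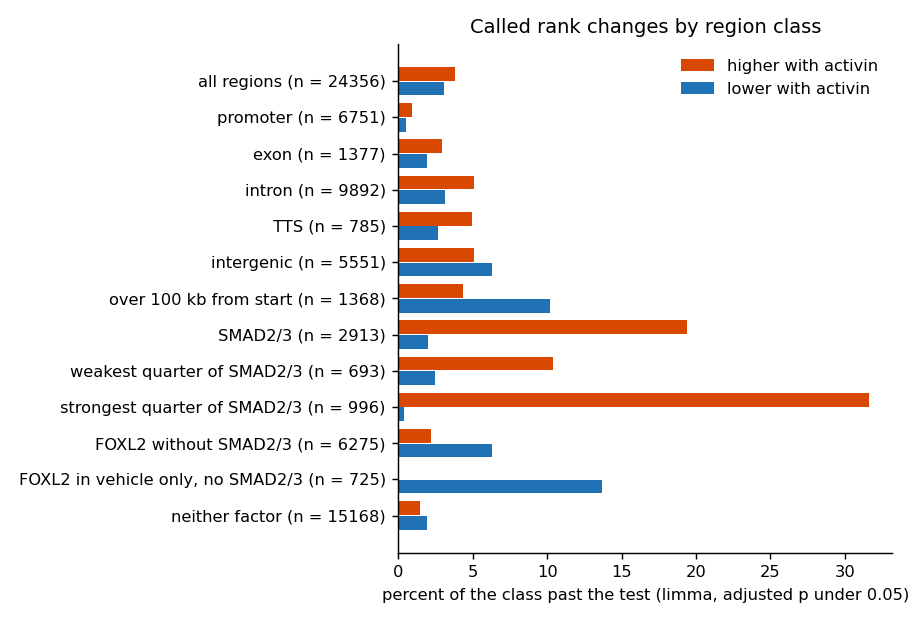
Bars give the percent of each class of shared regions (rows, with the number of regions n) past the rank test, higher (orange) or lower (blue) with activin. Regions with SMAD2/3 reach 19.4% higher and those with the strongest SMAD2/3 peaks 31.6%, and regions with FOXL2 in vehicle only reach 13.7% lower.

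FOXL2 binding without SMAD2/3 went with lower ranks. Regions with FOXL2 (a peak in both activin FOXL2 libraries) and no SMAD2/3 were of higher rank in 2.22% and of lower rank in 6.26% of 6275 cases. Their median shared percentile was 53.7 and 53.9 in vehicle and 46.9 and 45.7 in activin. These class medians differed by -7.53 points (pooled SD 0.644, exact permutation p = 0.333). The median change per region was smaller, at -3.09 points. Centred log2 width changed by a median of -0.040, against 0.031 over all shared regions. Shared percentiles are relative, so regions that rise in a library lower the others, and the size of this effect was not tested. Next, 725 regions without SMAD2/3 overlapped a FOXL2 region found in both vehicle libraries and neither activin library. Of these, 0 were of higher rank and 99 (13.7%) were of lower rank. The class median went from 65.5 and 67.6 to 49.8 and 49.7, and the median change per region was -9.00 points. Where FOXL2 was present only in activin and SMAD2/3 absent, 3.09% were of higher and 4.05% of lower rank. The class medians were 56.8, 57.8, 59.5 and 57.7, with overlapping groups. The median change per region was 1.73 points, and centred log2 width changed by a median of 0.112. Regions with neither factor stood at medians of 46.9, 46.8, 45.5 and 46.3, with 1.46% higher and 1.91% lower. FOXL2 overlap as such was frequent in both directions, at 68.3% of the regions of higher rank and 60.7% of those of lower rank, against 36.0% of all shared regions.

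**Figure D3:**
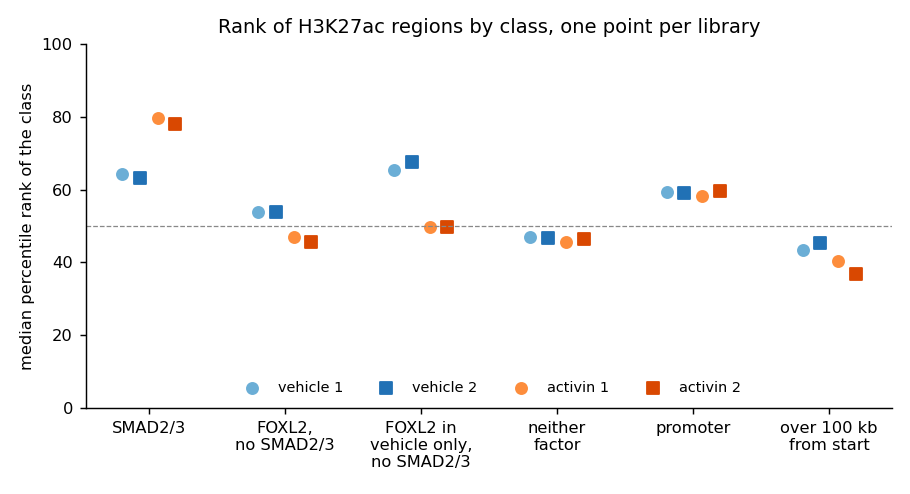
Points are the median shared percentile (y axis, percent) of each class of regions in each library, circles for replicate 1 and squares for replicate 2, blue for vehicle and orange for activin; the dashed line marks the middle of all regions. Activin points lie above vehicle points for SMAD2/3 (79.8 and 77.9 against 64.3 and 63.3) and below them for FOXL2 without SMAD2/3, and promoters stay between 58.3 and 59.6.

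Promoters had the smallest share of calls among the annotated classes. In the deposited annotation 6751 shared regions were promoters, with 0.904% of higher and 0.518% of lower rank, and their median percentile was 59.4, 59.2, 58.3 and 59.6. The corresponding shares were 5.11% and 3.14% for introns, 2.90% and 1.89% for exons, 4.97% and 2.68% at transcription ends and 5.06% and 6.27% between genes. The few promoters with SMAD2/3 differed from the rest: 20 of 131 (15.3%) were of higher rank and 0.763% of lower rank, against 0.619% and 0.514% of promoters without SMAD2/3. Regions over 100 kb from the nearest annotated start leaned the other way, with 4.31% higher and 10.2% lower. Called regions were long, with a median span of 2488 bp for higher and 2502 bp for lower rank against 1657 bp over all shared regions, and they lay a median of 14.2 kb and 23.9 kb from the nearest start against 6.96 kb. Of regions of higher rank, 30.6% had another of higher rank within 100 kb and 7.88% had one of lower rank. For lower rank the shares were 28.3% for another of lower rank and 10.5% for one of higher rank. Neighbours can be pieces of one acetylated stretch, as merging peaks within 500 bp gave 42228 regions against 53008. The share with a called neighbour over all shared regions was not computed, so these shares are not a result about called regions. By chromosome, lower rank was most frequent on chromosome 16 (6.29%) and 18 (5.22%), and higher rank least frequent on chromosome 3 (1.72%) among chromosomes other than Y, which held only 2 shared regions.

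The 10 regions with the largest gain of rank all held both SMAD2/3 and FOXL2, and all 10 had adjusted p-values of 0.031 to 0.032 (limma). The first lay 6.19 kb before the start of Atp13a3, which encodes a polyamine-transporting P5-type ATPase (chr16:30393516-30395808). Its shared percentile was 5.13 and 0.854 in vehicle and 88.0 and 88.4 in activin, and its acetylated width went from 296 and 336 bp to 2273 and 2187 bp (log2 difference 2.92, SE 0.186, adjusted p = 0.038). This region stood near the bottom of the order in both vehicle libraries and near its top in both activin libraries. A region in intron 21 of Rad50, a gene of the double-strand-break repair complex (chr11:53663248-53667019), stood at 3.34 and 1.20 in vehicle and at 83.4 and 77.3 in activin. Kif26a, which encodes an atypical kinesin, had a region 78.4 kb after its start at 8.07, 10.6, 87.2 and 84.6. A region annotated as promoter of Ube2v1, a ubiquitin-conjugating enzyme variant (chr2:167609136-167612794), stood at 2.75, 6.70, 83.8 and 76.4. It was the only one of the 10 in the promoter class. The same annotation gave its nearest start as that of Gm11475, 19.6 kb away, and its centre lay inside the body of Ube2v1, so its place at a promoter is uncertain. The groups did not overlap in any of these, which follows from naming regions by their called rank difference. Over all shared regions, groups did not overlap upward in 27.9%. Others were in intron 37 of Nup210l, intron 1 of Sh3kbp1 (an adaptor of receptor endocytosis) and intron 2 of Dnajb13 (an axonemal protein; 19.0, 10.5, 82.9 and 89.1), and close to Tjap1 and the aquaglyceroporin gene Aqp7.

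Activin-only regions of the highest rank within their lists, measured as the percentile by −log10 q among all peaks of a library (list percentile), included 7 of 10 with SMAD2/3. The strongest lay 13.9 kb before the start of Esr2, the oestrogen receptor β gene (chr12:76190456-76191822), at list percentiles of 92.8 and 92.3 in the activin libraries with no peak in vehicle. Others lay in intron 3 of Tbc1d14 (92.2 and 87.7), which encodes a regulator of autophagosome formation, and in intron 3 of Cep164 (85.0 and 81.7), a gene of the centriole's distal appendages. Atp2c2, a calcium ATPase of the secretory pathway, gained a region in intron 10 at 81.9 and 86.1, which held neither factor. Zbed5 gained its promoter region (chr5:129895181-129896343; 1161 and 1162 bp; list percentiles 80.8 and 82.6), which covers the whole promoter run printed above and holds SMAD2/3 but no FOXL2. These regions were chosen by list percentile, so their place in the upper part of both activin lists follows from the choice. The remaining regions were in Polg2, Fam185a, Raly, Klhl12 and Rabgef1. Fam185a had no acetylated DNA in vehicle and 1570 and 1601 bp in activin, and Klhl12, an adaptor of a cullin ubiquitin ligase, had 255 and 0 bp in vehicle and 4816 and 5336 bp in activin over 8 regions.

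The strongest losses included several regions of the same genes. Of the 10 strongest vehicle-only regions, 4 lay in introns 5 and 6 of Macrod2, which encodes a mono-ADP-ribose hydrolase; 9 of the 10 held FOXL2 and 2 held SMAD2/3. The gene body of Macrod2 held 33204 and 30447 bp of acetylated DNA in vehicle and 10182 and 7093 bp in activin, with 14 of its 37 regions vehicle-only and 1 activin-only, while 2 of its regions were of higher rank. Rnls, the renalase gene, held 16835 and 16878 bp in vehicle and 1093 and 1081 bp in activin, and 8 of its 14 regions were vehicle-only. Mta3, a subunit gene of the NuRD chromatin remodelling complex, held 17835 and 15115 bp in vehicle and 9202 and 7373 bp in activin. Both activin libraries lay below both vehicle libraries in each of these gene bodies. The genes were chosen through their vehicle-only regions, so this is no separate result. In intron 7 of Mta3 a vehicle-only region (chr17:83768353-83769531, list percentiles 93.0 and 86.1) adjoined a region of lower rank (chr17:83765429-83768023; shared percentiles 93.2, 92.9, 30.4 and 17.2).

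Of the 10 regions with the largest loss of rank, 1 held SMAD2/3 and 7 held FOXL2. Intron 1 of Klhl32, a kelch-family gene, had a region (chr4:24801130-24804775) at 83.0 and 84.7 in vehicle and at 8.03 and 5.56 in activin (limma adjusted p = 0.031). Rbfox1, which encodes a neuronal splicing regulator, had one in intron 7 at 82.4, 85.1, 21.1 and 4.11. A region 281 kb from the nearest start, that of Gm10247, stood at 96.4, 95.9, 24.7 and 22.6. All 3 were named for their loss of rank, so a high place in vehicle and a low place in activin follow from the choice. The region with SMAD2/3 lay 461 kb from the start of BC002059 (83.3, 82.7, 13.2 and 12.1), and the others lay near Gm24288, Gm14062, Gm24774 and Gm10237, in intron 3 of Ctnna2 (an α-catenin gene of neurons) and in Mta3.

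Introns held 53.6% of the wider regions and 40.6% of all shared regions. A region in intron 20 of Lrba, a vesicle trafficking gene (chr3:86325856-86328454), measured 207 and 239 bp in vehicle and 2336 and 1890 bp in activin (centred log2 difference 3.34, SE 0.180, limma adjusted p = 0.038). Intron 11 of Ctnna1, the α-catenin gene that hosts Lrrtm2, had one of 177 and 367 bp and then 2787 and 2722 bp. Both were named for their gain of width, so short widths in vehicle and longer ones in activin follow from that rule. Among the 10 widest gains 8 held SMAD2/3, and others named by the rule lay near Lrrn1 and Gpr21 and in Vdac1, Cntnap5a, Bcl7c, Slc38a10 and Fam13a. None of the 10 largest narrowings held SMAD2/3. Intron 1 of the ephrin receptor gene Epha5 had a region of 3775 and 3336 bp in vehicle and 227 and 268 bp in activin (log2 difference -3.75, SE 0.229, adjusted p = 0.038), and intron 4 of Zbtb20, a zinc finger repressor gene, one of 3011, 3326, 247 and 208 bp. The rest lay near Zfp169, Rpl13a-ps1, Gm23426, Gm15262 and Sdc2 and in Supt3, Sik2 and Dad1. At 1810046K07Rik the promoter region (chr9:51312271-51316209), which covers the printed run, narrowed from 3229 and 3939 bp to 470 and 463 bp (adjusted p = 0.038).

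Summed over each gene's assigned peaks, acetylated DNA passed the test as more with activin in 375 of 13677 genes (2.74%) and as less in 347 (2.54%), against 27.9% and 28.4% of genes whose groups did not overlap. With any 1 library left out, no gene passed. A further 494 of 18693 genes (2.64%) had a peak only in both activin libraries and 647 (3.46%) only in both vehicle libraries. Genes with SMAD2/3 at their regions had more calls upward: 1.31% of the 11117 genes without such a region, 8.23% of 1895 with 1, 10.4% of 471 with 2 and 12.4% of 194 with 3 or more, and 2.85%, 1.21%, 1.06% and 1.03% downward. Dnajb13 led the gains with 226 and 194 bp in vehicle and 3817 and 2858 bp in activin (log2 difference 4.05, SE 0.163, limma adjusted p = 0.029). Gpr21, an orphan receptor gene, had 245, 235, 3409 and 2911 bp, and the apolipoprotein F gene Apof had 289, 219, 3052 and 2955 bp. All 3 held little acetylated DNA in vehicle. Among protein-coding genes with less, Rnls had 16321, 16451, 1093 and 1081 bp (log2 difference -3.84, SE 0.158, adjusted p = 0.029), 1810046K07Rik 5524, 5755, 470 and 463 bp and Morc4 5119, 4730, 568 and 292 bp. The other genes of the rule were Lrrtm2 (430, 367, 4995 and 3525 bp) and non-coding or pseudogene entries, of which Gm25871 lost its call when all peaks of a region were counted for 1 gene (log2 difference -0.05, adjusted p = 0.879).

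**Figure D4:**
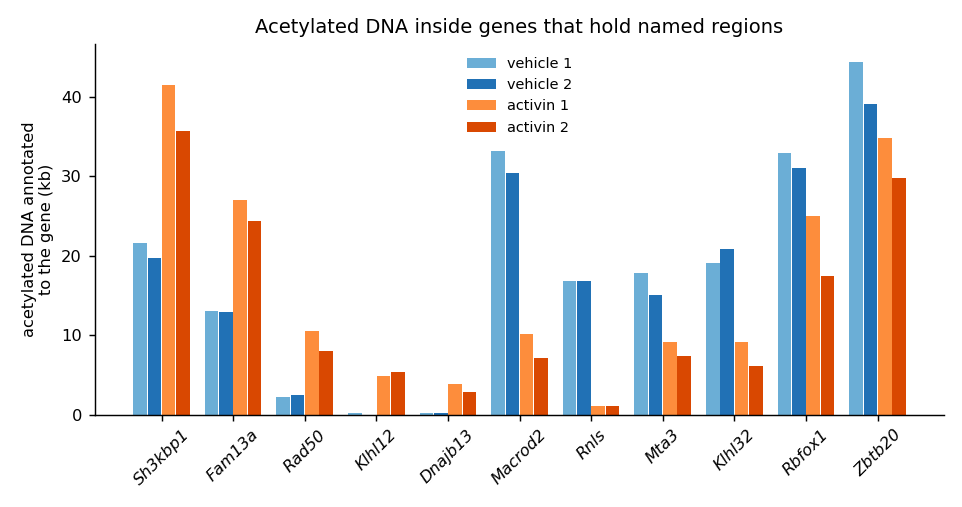
Bars are the summed width (kb) of H3K27ac peaks annotated to the body of each gene, 1 bar per library. Activin bars (orange) are taller than vehicle bars (blue) from Sh3kbp1 (41534 and 35765 against 21557 and 19774 bp) to Dnajb13, and shorter from Macrod2 to Zbtb20. The genes shown were picked from those that hold named regions, and some not shown went against their region. The body of Lrba, named for a wider region, held 9957, 7685, 6556 and 6041 bp. That of Supt3, named for a narrower one, held 47681, 44672, 58117 and 49615 bp.

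Numbers of regions per gene gave a related order. Gm15186, a pseudogene entry whose assigned regions include the one in intron 1 of Sh3kbp1, had 8 activin-only regions and went from 1688 and 2019 bp to 12127 and 9291 bp (log2 difference 2.60, limma adjusted p = 0.029), and the body of Sh3kbp1 went from 21557 and 19774 bp to 41534 and 35765 bp with 9 activin-only regions and no vehicle-only one. Rxra, the retinoid X receptor α gene, had 7 activin-only regions and no vehicle-only one at 18404, 16280, 30778 and 25594 bp, which did not pass (log2 difference 0.77, adjusted p = 0.063). In Rbfox1 and Fgf12, with 8 activin-only regions each, vehicle-only regions occurred as well (3 and 2), and the sums did not pass. Most vehicle-only regions were counted for Gm16347 (9), Cntn4, 1700101O22Rik and Gm24729 (8 each) and Prelid2 (7), of which Gm24729 passed with 14655, 14494, 3543 and 2645 bp (log2 difference -2.18, adjusted p = 0.029).

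Among the genes that define the gonadotrope, differences were found in both directions and 1 passed. Of 25 genes in this list 17 could be tested, and 1 had more acetylated DNA and 0 less; the groups did not overlap in 6 upward (35.3%, against 27.9% of all genes) and 4 downward (23.5%, against 28.4%). These included Lhx4 (log2 difference 1.00, adjusted p = 0.101) and Nr0b1 (-0.58, adjusted p = 0.099), which did not pass; the median log2 difference was 0.05, against -0.01 over all genes. Here and in the lists below, counts of 1 or 2 genes stand beside 2.74% and 2.54% of all genes and are not results about a list. Gnrhr had 8760 and 8902 bp in vehicle and 8785 and 8669 bp in activin, and Nr5a1, which encodes SF-1, had 10500, 10826, 10359 and 10538 bp. Foxl2 itself had 8889, 9633, 10163 and 9393 bp. The groups of Gnrhr and Nr5a1 overlapped, and those of Foxl2 overlapped in bp but not once each library was centred on its median. The region over the Cga promoter spanned 21839, 21534, 21423 and 20605 bp and ranked at shared percentiles of 99.7, 99.7, 98.8 and 99.2, and that over the Gnrhr promoter at 98.5, 98.1, 97.7 and 96.2. The sum of peaks assigned to Cga was 11699, 11408, 18298 and 18673 bp and did not pass (log2 difference 0.75, limma adjusted p = 0.084). With all peaks of a region counted for 1 gene, the log2 difference of Cga was 0.03 (limma adjusted p = 0.937). Lhb was the gonadotropin gene with the largest difference, with 1820 and 1905 bp in vehicle and 3451 and 3351 bp in activin, and it did not pass (log2 difference 0.94, SE 0.157, limma adjusted p = 0.054) unless all peaks of a region were counted for 1 gene (adjusted p = 0.046). Its promoter region, which covers the SF-1 and SMAD-box letters printed above and overlaps SMAD2/3, ranked at 42.9 and 49.3 in vehicle and 82.1 and 68.8 in activin (adjusted p = 0.091). Hesx1, a homeobox gene of early pituitary development, was the gene that passed, with 4268 and 3848 bp in vehicle and 9743 and 7740 bp in activin (log2 difference 1.17, SE 0.146, adjusted p = 0.040). Regions 7.36 kb before and 6.43 kb after its start, both with SMAD2/3, were of higher rank (12.5, 20.5, 62.5 and 70.2 for the former; 43.2, 45.3, 89.0 and 92.9 for the latter).

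Fshb had no acetylated region at its promoter in any library, and no peak was assigned to it. Within 100 kb of its start (chr2, minus strand), a region 63.7 kb upstream with SMAD2/3 and FOXL2 (chr2:107117071-107129627) was wider with activin, with 4129 and 3872 bp in vehicle and 12539 and 10964 bp in activin (limma adjusted p = 0.041). It ranked at 72.8, 76.4, 90.7 and 98.0, a difference that did not pass (adjusted p = 0.091). Around it stood 4 activin-only regions without SMAD2/3, at 22.8, 24.6, 56.2 and 71.4 kb upstream, of which the one at 24.6 kb was the broadest (chr2:107082820-107085777; 2571 and 2396 bp; list percentiles 62.5 and 51.0). A region 90.4 kb upstream with both factors kept its width (4459, 4190, 5110 and 4647 bp; adjusted p = 0.444). On the other side of the gene a region at 85.4 kb measured 984, 907, 955 and 1148 bp, and 5 short regions between 89.5 and 97.6 kb had a peak in 1 activin library each and none in vehicle.

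Genes of other cell types passed in neither direction when each peak was counted for its nearest gene. Among 21 genes of other pituitary lineages 9 had a peak, 6 were tested and 0 passed in either direction. The growth-hormone-releasing hormone receptor gene Ghrhr came closest, with 10893 and 9702 bp in vehicle and 19531 and 18139 bp in activin (log2 difference 0.94, limma adjusted p = 0.052). With all peaks of a region counted for 1 gene, Ghrhr and the corticotropin-releasing hormone receptor gene Crhr1 (4023, 3726, 6925 and 6291 bp) passed as more (adjusted p = 0.044 and 0.048). A region at the transcription end of Ghrhr with SMAD2/3 was of higher rank (54.3, 44.8, 86.4 and 86.2) and wider (2017, 1807, 5039 and 4693 bp). In the opposite direction, a region 21.3 kb before Neurod1, a helix-loop-helix factor gene of the corticotrope lineage, was of lower rank (83.8, 87.9, 38.8 and 36.1; adjusted p = 0.032). Of the non-endocrine genes only Pecam1 and Cdh5 had peaks, at sums of 12678, 14220, 15373 and 12692 bp and of 19707, 21163, 19711 and 19453 bp. Neither passed (adjusted p = 0.667 and 0.976). A wider region in intron 11 of Pecam1 (218, 224, 837 and 610 bp; adjusted p = 0.041) and a region of higher rank 569 kb before Cdh5 (10.4, 17.9, 77.8 and 72.1; adjusted p = 0.031) were called, however.

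Among ligands and antagonists of the activin family, 12 of 22 genes had a peak, 8 were tested, and 1 passed as more and 0 as less. Inhbb, which encodes the β-B subunit of activin B and inhibin B, had 9744 and 9499 bp in vehicle and 19545 and 15645 bp in activin (log2 difference 0.93, SE 0.140, limma adjusted p = 0.048). The called regions lay downstream of the gene. Regions 24.2, 30.6 and 35.7 kb after the start were of higher rank, at 11.6, 8.67, 50.0 and 42.6 for the nearest, 60.3, 74.3, 93.8 and 93.3 for the next and 24.8, 18.9, 58.9 and 68.3 for the farthest, which was also wider (626, 534, 2146 and 1903 bp). The promoter region of Inhbb, which covers 87 bases of the printed run, ranked at 51.7, 34.1, 72.5 and 66.4 and did not pass (adjusted p = 0.125). Inha, the inhibin α gene, had 3128, 3414, 4567 and 4385 bp (adjusted p = 0.146). Grem1, which encodes the BMP antagonist gremlin, had no peak in vehicle and 1340 and 1080 bp in activin, in a pair of regions of intron 1 at list percentiles of 81.1 and 68.4 and of 58.6 and 67.2. Nodal had peaks only in vehicle (511 and 734 bp).

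**Figure D5:**
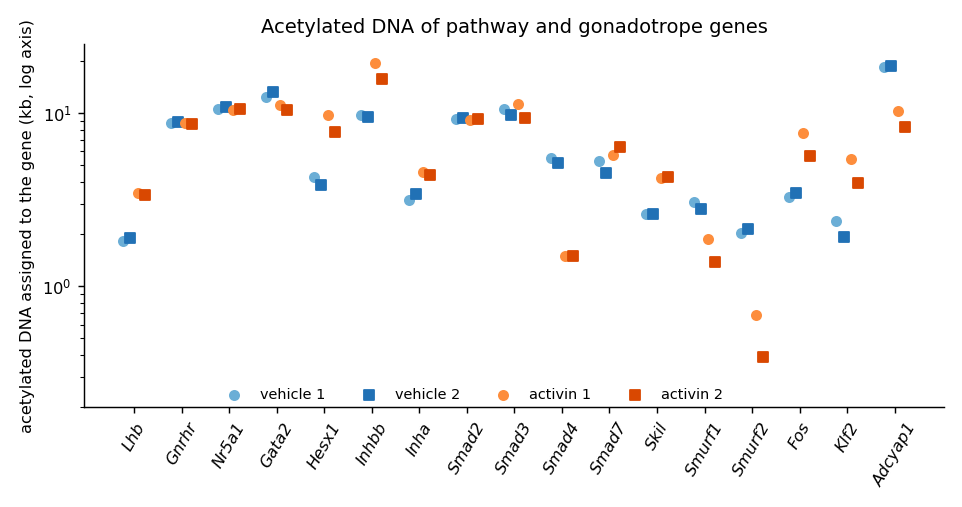
Points are the acetylated DNA assigned to each gene (kb, log axis) in each library, circles for replicate 1 and squares for replicate 2, blue for vehicle and orange for activin. Hesx1, Inhbb, Fos and Klf2 lie higher in activin, Smad4, Smurf2 and Adcyap1 lie lower, and the points of Gnrhr, Nr5a1 and Smad2 lie close together.

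Receptor genes passed in neither direction (7 of 14 tested, 0 called; median log2 difference 0.29). The type II activin receptor gene Acvr2b held 2 regions of higher rank in intron 1, at 14.1, 8.47, 52.2 and 69.7 (chr9:119402360-119403475) and at 3.68, 1.12, 60.4 and 53.9 (chr9:119415055-119416315), without SMAD2/3. Among SMADs and cofactors, 9 of 13 genes were tested and 1 passed, as less. Smad2 had 9182 and 9403 bp in vehicle and 9153 and 9171 bp in activin, and Smad3 had 10483, 9748, 11303 and 9304 bp, and neither passed (adjusted p = 0.883 and 0.741). Smad4, the common partner of the receptor-activated SMADs, had 5499, 5125, 1494 and 1504 bp (log2 difference -1.75, SE 0.163, limma adjusted p = 0.034; -1.03 and 0.040 with all peaks of a region counted for 1 gene). A region in its intron 2 (chr18:73646383-73648503) narrowed from 2076 and 1385 bp to 247 and 317 bp.

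Feedback inhibitors of the pathway, listed here together with Id genes, had calls in both directions. Of the 19 shared regions of this list, 3 were of higher rank, at Skil and Ldlrad4, and 1 was of lower rank, near Id1. Over all shared regions the shares were 3.8% and 3.04%. Of 17 genes 11 were tested, 0 passed as more and 1 as less. Smurf2, a ubiquitin ligase that targets SMADs and receptors, had 2042 and 2133 bp in vehicle and 687 and 391 bp in activin (log2 difference -1.94, SE 0.245, limma adjusted p = 0.041), and the related Smurf1 had 3051, 2803, 1879 and 1389 bp without passing (adjusted p = 0.070). Skil, whose product SnoN represses SMAD-driven transcription, had a promoter region (chr3:31095526-31096397) of higher rank, at 5.87 and 0.719 in vehicle and 58.1 and 72.6 in activin (adjusted p = 0.035). The Skil gene sum of 2615, 2607, 4189 and 4270 bp did not pass (adjusted p = 0.081). Ldlrad4, another inhibitor of receptor-activated SMADs, had a region in intron 1 at 23.8, 21.6, 79.6 and 81.1 and one 2.38 kb before its start at 15.2, 13.6, 71.8 and 53.4, both of higher rank. Smad7, the inhibitory SMAD that blocks type I receptors, had 5303, 4491, 5733 and 6351 bp, and 2226, 2180, 2338 and 1606 bp with all peaks of a region counted for 1 gene; the log2 differences of 0.38 and -0.11 have opposite signs and neither passed (adjusted p = 0.348 and 0.742). A region 17.0 kb before Id1, an inhibitor of helix-loop-helix factors induced by BMP, was of lower rank (77.2, 81.1, 23.2 and 19.5, limma adjusted p = 0.031). The nearest protein-coding gene body to this region was that of H13, 10.8 kb away. Id4 had peaks only in vehicle.

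Known SMAD targets were called at regions only, and immediate early genes only as gene sums. Of 44 genes known as SMAD targets elsewhere, 13 were tested, 0 passed, and the median log2 difference was 0.01. At the level of regions, 4 of 37 shared regions of this list were of higher and 0 of lower rank (3.8% and 3.04% of all shared regions), near Hes1 (both sides of the gene), Vegfa and Cited2. The region 3.48 kb before Hes1, a Notch-responsive repressor gene, ranked at 31.7, 19.0, 83.0 and 67.2. Among 32 immediate early genes, which respond within minutes to many stimuli, 18 were tested, 2 passed as more and 0 as less. Of the 35 shared regions of this list, 0 were of higher and 0 of lower rank. Fos had 3266 and 3441 bp in vehicle and 7675 and 5669 bp in activin (log2 difference 1.05, SE 0.158, limma adjusted p = 0.048), and the endothelial and T-cell transcription factor gene Klf2 had 2373, 1934, 5393 and 3946 bp (1.18, SE 0.179, adjusted p = 0.048). Part of the Fos gain was an activin-only region 12.7 kb before its start with SMAD2/3 (chr12:85461646-85464122; list percentiles 68.3 and 36.1). Egr2 gained its promoter region in both activin libraries (636 and 632 bp, list percentiles 28.6 and 28.8), whereas Egr1, which mediates the gonadotropin-releasing hormone response of Lhb, had 3590, 2300, 2967 and 2246 bp with overlapping groups.

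In the pathway of gonadotropin-releasing hormone, 23 of 34 genes were tested, 0 passed as more and 1 as less. Adcyap1, which encodes the neuropeptide PACAP, had 18373 and 18558 bp in vehicle and 10276 and 8266 bp in activin (log2 difference -0.93, SE 0.140, limma adjusted p = 0.048). The assigned regions lay far from the gene, and those 278 and 272 kb before its start were of lower rank (99.2, 98.9, 79.5 and 75.4; 95.2, 96.2, 54.9 and 27.3). Its receptor gene Adcyap1r1 had peaks only in activin (472 and 991 bp), and the adenylate cyclase gene Adcy3 only in vehicle (2471 and 2243 bp). Regions with SMAD2/3 in intron 1 of Creb1 (41.3, 35.2, 85.5 and 81.3) and intron 4 of the IP3 receptor gene Itpr1 (84.7, 84.9, 97.3 and 98.0) were of higher rank.

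Secretory granule genes were tested for 21 of 28 members and 0 passed, with a median log2 difference of 0.04. Within their 51 shared regions 4 were of higher and 0 of lower rank, against 3.8% and 3.04% of all shared regions. Pcsk1n, which encodes the convertase inhibitor proSAAS, had its promoter region, which covers 105 bases of the printed run with all of its capital letters, at 86.9 and 88.3 in vehicle and 99.1 and 99.9 in activin (limma adjusted p = 0.046), and a region in its intron 1 at 20.3, 24.8, 67.1 and 68.2; neither overlapped SMAD2/3. A region 18.7 kb before Syt7, a calcium sensor of exocytosis, with SMAD2/3, stood at 28.6, 20.1, 84.4 and 82.7, and one 22.6 kb before the complexin gene Cplx2 passed too. Chromogranin A, the gene Chga, kept one of the largest sums of the list with 33837, 33606, 32672 and 31570 bp.

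Genes of the Hippo pathway (11 of 24 tested), of histone acetylation (16 of 28) and of ribosomal proteins (61 of 77) passed in 0 cases, with median log2 differences of -0.09, -0.11 and -0.0036, against 2.74% and 2.54% of all genes. A region in intron 19 of Crebbp, the gene of the acetyltransferase CBP, with SMAD2/3, was of higher rank (3.82, 4.23, 68.8 and 58.3; limma adjusted p = 0.031), and the gene's sum of 2243, 2329, 5579 and 3141 bp did not pass (adjusted p = 0.113). Ep300, the gene of p300, had peaks only in vehicle (175 and 308 bp), at widths near the narrowest in the lists. Lats1, a kinase gene of the Hippo pathway, had a narrower region in intron 1 (1241, 1311, 290 and 259 bp; adjusted p = 0.038) and a sum of 3285, 2862, 1795 and 1425 bp that did not pass (adjusted p = 0.057), but passed as less with all peaks of a region counted for 1 gene (0.049), as did the ribosomal gene Rps21 as more (0.046). Of the shared regions, 1 of 24 (Hippo), 1 of 35 (histone acetylation) and 1 of 80 (ribosomal) were of higher rank and 1, 1 and 0 of lower rank, against 3.8% and 3.04% of all shared regions.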

How the data were processed

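Peak lists and annotation tables of the 4 H3K27ac libraries, and the SMAD2/3 and FOXL2 peak lists of the same series, were read as deposited. Per the submitters' processing notes the tools were Bowtie2, MACS2 and HOMER on GRCm38 (mm10), with no versions or settings; reads were single-end, 50 bp, per the labels. The deposited lists give the authors' ratio of enrichment (fold) and −log10 q (at least 1 in every list) for each peak, which served to rank peaks within a list and, in alternatives, to filter them. The distance in bp to the nearest start and the genomic class are the authors' annotation, and each gene's sum counts the peaks whose nearest start is that gene. Deposited scores and the −log10 of p were not used. Coordinates are counted from 1.

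Ranks, log2 widths and log2 gene sums were fitted with limma 3.58.1 in R 4.3.3, 2 libraries against 2, and adjusted over all features by Benjamini-Hochberg. Widths and gene sums were first centred on each library's median. Before centring, the median difference per feature between activin and vehicle was -0.068 for widths and -0.083 for gene sums. The scripts were tested on simulated data. Single values per library had an exact permutation test. Python 3.11.15 was used for the rest. Named regions and genes are the 10 strongest activin-only and vehicle-only regions, the 10 largest called differences in each direction of rank, width and gene sum, the 5 genes with most activin-only or vehicle-only regions, and the members of 14 gene lists. A few of these are not reported here. Members, lists and rules were chosen with earlier results of these data known. Host genes were taken from the deposited annotation and RefSeq gene bodies. Replicates were not paired: deviations of libraries with the same number correlated at -0.024 (rank), -0.005 (width) and 0.029 (gene sums). The labels name no batch.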

Additional observations from a re-analysis of the deposited data

How the results depend on the processing

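Named regions and genes that passed kept their direction under each alternative in which they could be computed. With presence taken only from peaks at −log10 q of at least 5, activin-only regions were 153 and vehicle-only regions 159, against 3094 and 3599; leaving out 1 library gave 3783 to 8512 and 4283 to 8070, with the highest values without activin 2 and without vehicle 2. Activin-only regions then outnumbered vehicle-only ones without activin 1 (6484 against 6021) and without activin 2 (8512 against 4283), the opposite order to that with all libraries. With 1 library left out, however, presence or absence in its group is judged on the 1 library that remains. That looser rule raises the counts by definition, so the orders cannot be compared. Called ranks were 0 in each direction with any 1 library left out, against 926 and 741, and so were gene sums, against 375 and 347. Wider regions ranged from 0 to 501 and narrower ones from 0 to 183 with 1 library left out. Without centring, 0 regions were wider and 0 narrower, and 51 genes had more and 61 less. Restricting to a mean of at least 1000 bp gave 618 wider and 521 narrower regions and 688 and 611 genes, with fewer features tested, and merging peaks within 500 bp gave 313 narrower regions. Counting all peaks of a region for 1 gene, an alternative chosen after seeing the data, gave 524 and 491 genes, which held 358 of the 375 and 330 of the 347, and it turned the sign of 7 list genes that had not passed (Id3, Vamp2, Smad7, Ncoa3, Spp1, Vgf and Kat7). A replicate block left 0 calls for rank, width and gene sums, with 3209 and 3095 regions at an unadjusted p under 0.05 for rank, and replicate numbers did not pair the libraries. Of the named results, 62 of 68 stayed called with peaks of −log10 q of at least 2, 72 of 81 with merging within 500 bp, 48 of 51 when ranked by fold, 26 of 106 without vehicle 1, 22 of 106 without vehicle 2, 0 of 105 without activin 1 and 0 of 106 without activin 2. Beyond the changed rule for activin-only and vehicle-only regions, the cause of these differences was not tested. Reads per library are unknown, so the depth behind an absent peak is unknown as well.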

Other observations

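Regions with a peak in 1 library only entered neither the counts of activin-only and vehicle-only regions nor the rank and width tests over the 4 libraries, while their peaks entered the gene sums and the values per library. Activin 1 alone had 5134 of the 53008 regions (9.69%), vehicle 1 alone 3982 (7.51%), vehicle 2 alone 3594 (6.78%) and activin 2 alone 2560 (4.83%).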
